A study of Homo sapiens with 12 samples.

Results

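Matrix metalloproteinases (MMPs) are zinc-dependent enzymes that cut collagens, laminins, fibronectin and other proteins of the extracellular matrix. They are made as inactive proenzymes whose propeptide blocks the zinc site, and most are secreted and activated outside the cell by plasmin, by other MMPs or at the cell surface. Tissue inhibitors of metalloproteinases (TIMPs) bind the active site and stop the enzyme. In ovarian cancer this system is known for its part in invasion through the peritoneal lining, and MMP1, MMP3 and MMP10 are textbook targets of AP-1, the FOS and JUN family of transcription factors.

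The 8 genes described here are 5 proteases (MMP1, MMP2, MMP3, MMP10 and MMP14) and 3 inhibitors (TIMP1, TIMP2 and TIMP3), out of 14029 genes tested, and all 8 of those listed had values. They were chosen by family and because MMP10 had one of the largest rises between the very libraries compared below, so the differences of all 8 are given as a description, with no p-value. The cells were ES-2, an established human ovarian cancer line, grown in DMEM with serum. One group carried the control vector (PLKO in the titles, genotype WT in the labels) and the other an shRNA against SRMS, a non-receptor tyrosine kinase (genotype SRMS knockdown), and both groups had received 15 µM cisplatin, a DNA-crosslinking drug, for 8 hours. Each group had 3 libraries. The labels do not say whether a construct is 1 clone or a pool, how many hairpins were used, or whether replicates were separate cultures, so spread between replicates may be technical. The 6 PBS samples of the series are not analysed here, and no effect of cisplatin itself was measured. Values are the deposited signal, which is reads per gene scaled by library as for CPM, a usual per-library scaling.

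Reads recovered from that signal came to 28009232 to 56855428 per library. SRMS itself was counted in 2, 14 and 47 reads in vector replicates 1 to 3 and in 9, 39 and 27 in the replicates labelled SRMS shRNA, so a fall of the target was not seen (log2 fold change 0.52, limma adjusted p = 0.168). Blocked on replicate number, the limma adjusted p was 0.0078, toward more SRMS, and it was 0.0281 without vector replicate 3 and 0.0245 without SRMS shRNA replicate 1. Groups are therefore named by their labels throughout. Of 12 markers fixed for an ovarian carcinoma line, 7 had values, among them VIM, KRT18 and KRT7, with sums of 6721 to 7335 with the vector and 7715 to 8616 with SRMS shRNA (3 higher, 3 lower by limma). PAX8 was close to 0 (0.136 and 0.241 in vector and SRMS shRNA), and EPCAM, MUC16, CDH1 and MSLN were among those not analysed here. Markers of cells that also make MMPs and TIMPs differed between the groups. The summed signal of 8 fibroblast markers was 1365 to 1371 with the vector and 962 to 970 with SRMS shRNA. By limma 2 were higher and 2 lower. Most of this sum was COL1A1 (means 1238 and 816), then THY1 (113 and 132), while COL1A2 and COL3A1 were close to 0. For 6 leukocyte markers the sums were 50.3 to 53.1 and 62.5 to 66.9 (5 higher), and for 3 endothelial markers 14.8 to 16.8 and 5.88 to 8.36 (1 lower). Most of the leukocyte sum was CD68 (means 50.2 and 59.0), and the highest mean of the other leukocyte markers was 3.24 (CD14, SRMS shRNA). Most of the endothelial sum was CDH5 (15.2 and 6.12). The defining genes DCN, LUM, PTPRC, CD3E and VWF were not analysed here, and the part of other cells in the results below was not tested.

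On GRCh38 (GENCODE annotation, whole gene with exons and introns), MMP10 spans chr11:102770503-102780628, MMP1 chr11:102789920-102798160 and MMP3 chr11:102835801-102843803, each with 10 exons on the minus strand. The pseudogene WTAPP1 lies across MMP1 and MMP10 and overlaps MMP3 on the opposite strand; it was not analysed here. MMP2 spans chr16:55389700-55506691 (13 exons, plus strand) and MMP14 chr14:22836557-22849027 (10 exons, plus strand). The inhibitors are on other chromosomes, TIMP1 at chrX:47582313-47586789 (6 exons, plus strand), TIMP2 at chr17:78852977-78925387 (5 exons, minus strand) and TIMP3 at chr22:32801701-32863043 (5 exons, plus strand). Exon numbers are those of the 1 transcript chosen per gene.

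RefSeq promoter entries were found for 4 of the 8 genes, MMP10, MMP14, TIMP1 and TIMP3. The promoters of MMP1, MMP3, MMP2 and TIMP2 were therefore not searched. The 250 bases before the start of MMP10, the member with the largest difference, and of TIMP3, the member that was lower, are shown 5′ to 3′ on the gene's strand, since these genes moved in opposite directions. They lie on GRCh38.p14 at chr11:102780629-102780878 (minus strand) and chr22:32801455-32801704 (plus strand). Capitals mark the AP-1 motif TGANTCA and the TATA box motif TATAAA, searched on both strands.

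MMP10: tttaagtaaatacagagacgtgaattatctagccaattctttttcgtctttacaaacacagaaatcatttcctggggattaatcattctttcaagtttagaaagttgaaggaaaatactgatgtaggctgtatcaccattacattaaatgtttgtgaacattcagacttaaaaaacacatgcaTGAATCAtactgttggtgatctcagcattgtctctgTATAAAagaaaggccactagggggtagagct

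TIMP3: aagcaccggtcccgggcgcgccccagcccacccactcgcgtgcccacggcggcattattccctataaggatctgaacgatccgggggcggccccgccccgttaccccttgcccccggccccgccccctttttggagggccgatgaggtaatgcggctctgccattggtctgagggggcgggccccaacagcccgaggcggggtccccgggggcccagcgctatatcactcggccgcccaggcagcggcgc

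The MMP10 stretch held 1 AP-1 motif, which began 67 bases before the start, and 1 TATA box, which began 31 bases before it. The TIMP3 stretch held neither exact string, nor did those of TIMP1 and MMP14. Near matches were not counted. With no entry for MMP1 and MMP3, it is not shown whether these motifs set MMP10 apart from its neighbours. The AP-1 motif was in 4.70% of the 16461 promoter entries of genes in the table and the TATA box in 6.62%, and the motifs as searched cannot overlap each other. Among the genes with an entry, MMP10 had the least G and C before its start. It had 34.4%, against 56.8% for MMP14, 64.8% for TIMP1 and 72.4% for TIMP3. A match is a string of letters, and no binding was measured.

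MMP10, stromelysin-2, cuts proteoglycans, laminin and fibronectin and can activate other proMMPs. Its signal was 2.38, 3.12 and 3.17 in vector replicates 1 to 3, from 71, 143 and 182 reads. In the SRMS shRNA replicates it was 8.79, 9.93 and 9.02, from 241, 361 and 282 reads. The lowest SRMS shRNA value was thus well above the highest vector value. The means were 2.89 ± 0.446 and 9.24 ± 0.6 (SD, n = 3 each), a ratio of 3.20. On the log2 scale the fold change came to 1.53 (SE 0.113; 95% limits 1.28 and 1.78), the 8th highest of 14029. On the log2(signal + 0.5) scale used for all fold changes, a gene this low is understated, and 71 reads carry a counting error of 11.9%, which leaves out other sources of error. In these bulk libraries, more cells with the transcript and more transcript per cell cannot be told apart.

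MMP3, stromelysin-1, has a similar range of substrates. Its signal was 49.2, 56.3 and 55.3 with the vector and 99.1, 106 and 101 with SRMS shRNA. Every SRMS shRNA value was again far above every vector value. The means of 53.6 ± 3.83 and 102 ± 3.57 (SD, n = 3 each) gave a log2 fold change of 0.93 (SE 0.0544), the 155th highest. MMP3 and MMP10 are neighbours on chromosome 11 with alike transcripts, 84.1% identical over 1552 aligned bases. They shared 59 of the 1967 windows of 50 bases in the MMP3 transcript. No other pair among the 8 genes shared such a window. How reads from shared stretches were assigned is not given in the sources used here, so the split between these genes is uncertain to that extent. The ratio of MMP3 to MMP10 per kilobase (kb) of transcript, which no scaling of whole libraries alters, was 15.2 to 18.1 in the vector libraries and 9.32 to 9.83 in the SRMS shRNA libraries.

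MMP1, interstitial collagenase, cuts fibrillar collagens. Its signal was 8102, 8302 and 8348 with the vector and 8680, 8647 and 8657 with SRMS shRNA. The groups did not overlap, but the gap was small beside the level. The means were 8251 ± 130 and 8661 ± 16.7 (SD, n = 3 each), with a log2 fold change of 0.07 (SE 0.0383, 95% interval -0.01 to 0.16) that did not pass the limma threshold of an adjusted p under 0.05. In the fit blocked on replicate number this 0.07 passed. MMP1 lies between its neighbours, 17.5 kb from the start of MMP10, and MMP3 starts 63.2 kb away. The 3 genes, all on the minus strand of chromosome 11, therefore had ratios of SRMS shRNA to vector means of 3.20, near 1 and 1.90 in the order MMP10, MMP1, MMP3.

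MMP2, gelatinase A, cuts type IV collagen and denatured collagen, and its proenzyme is activated at the cell surface by MMP14 together with TIMP2. MMP2 had a signal of 97.0, 98.3 and 94.6 with the vector and 130, 136 and 130 with SRMS shRNA. The groups lay far apart beside their spread, with means of 96.6 ± 1.86 and 132 ± 3.4 (SD, n = 3 each) and a log2 fold change of 0.45 (SE 0.0364). MMP14, a protease anchored in the membrane, had 178, 164 and 171 with the vector and 200, 180 and 185 with SRMS shRNA. Its lowest SRMS shRNA library was barely above its highest vector library. The means of 171 ± 7.28 and 188 ± 10.3 (SD, n = 3 each) differed by a log2 fold change of 0.14 (SE 0.0469). MMP14 passed the threshold with all 6 libraries but lost that call when vector replicate 2 (0.11) or 3 (0.14) was left out, when SRMS shRNA replicate 1 (0.09) or 3 (0.15) was left out, and with quantile scaling (0.09) or replicates 2 and 3 averaged (0.14).

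TIMP2, the inhibitor that takes part in MMP2 activation, had 44.7, 37.0 and 38.0 with the vector and 62.7, 53.1 and 55.3 with SRMS shRNA. The groups did not overlap, and replicate 1 was the highest in each. The means were 39.9 ± 4.19 and 57.0 ± 5.02 (SD, n = 3 each), and the log2 fold change was 0.51 (SE 0.0794). MMP2 and TIMP2 differed by nearly the same factor, 1.37 and 1.43, and their ratio per kb was 2.12, 2.60 and 2.43 in vector replicates 1 to 3 and 2.02, 2.50 and 2.30 in the SRMS shRNA replicates. The ranges overlap. Within each replicate number the SRMS shRNA library had the lower ratio, but a pairing of replicates 2 and 3 by number is not shown. SRMS shRNA replicate 2 (2.50) stood above vector replicate 3 (2.43). The ratio of MMP14 to TIMP2 was 4.21 ± 0.272 and 3.23 ± 0.105 (SD, n = 3 each), and its ranges did not overlap.

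TIMP1, a secreted inhibitor of most soluble MMPs, had a signal of 211, 232 and 223 with the vector and 281, 323 and 321 with SRMS shRNA. No SRMS shRNA library came near the vector range. The means were 222 ± 10.3 and 308 ± 23.4 (SD, n = 3 each), or 0.47 as a log2 fold change (SE 0.0555). TIMP1 lies inside SYN1, a gene on the opposite strand with a signal of 0.361 ± 0.123 and 0.61 ± 0.237 (SD, n = 3 each), so it could add little to TIMP1 if the counting ignored strand, which the sources do not state. When the trend of fold change over transcript length and GC content was subtracted in the blocked fit (called the length and GC correction from here on), TIMP1 was at 0.15.

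TIMP3, an inhibitor bound to the matrix that also blocks ADAM17 and several ADAMTS proteases, was the exception in direction. It had 93.4, 92.0 and 88.6 with the vector and 74.7, 74.4 and 73.1 with SRMS shRNA. All 3 SRMS shRNA values lay below all vector values. The means were 91.4 ± 2.46 and 74.0 ± 0.857 (SD, n = 3 each), a log2 fold change of -0.30 (SE 0.0375). TIMP3 was at -0.14 with median scaling, which sets all libraries to 1 median, and at -0.11 after the length and GC correction. TIMP3 lies inside SYN3 on the opposite strand, which was not analysed here. TIMP1 and TIMP3 thus moved apart, and their ratio per kb was 11.7 to 13.0 with the vector and 19.4 to 22.6 with SRMS shRNA. This ratio is without the length and GC correction, after which TIMP1 was at 0.15 and TIMP3 at -0.11, a smaller gap.

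**Figure D1:**
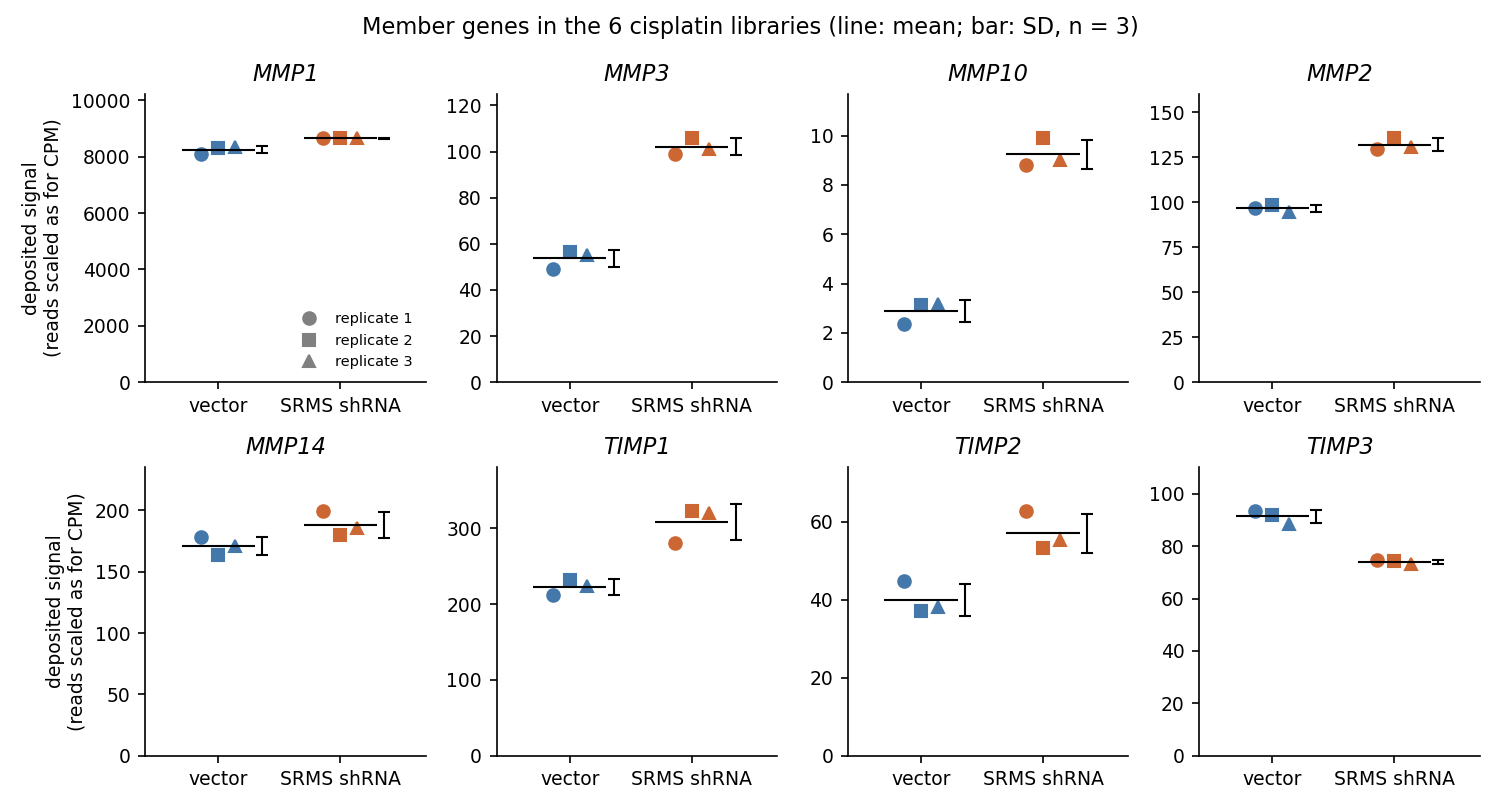
Deposited signal (reads scaled as for CPM, linear axis from 0) of each member in the 3 vector and 3 SRMS shRNA libraries under cisplatin; symbols give the replicate number, lines the mean and bars the SD (n = 3). The groups do not overlap for any of the 8 genes, relative to its level the gap is widest for MMP10 (2.38 to 3.17 against 8.79 to 9.93), and TIMP3 alone is lower with SRMS shRNA.

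Of the 8 genes, 6 passed the threshold toward higher values (4 proteases and 2 inhibitors), where 26.6% of all genes did, and 1 toward lower values, where 30.2% did. The groups did not overlap in 8 of 8, against 62.7% of all genes. Since this contrast chose the members, nothing is read from these counts. The median log2 fold change was 0.46 over the 8 genes, 0.45 over the proteases and 0.47 over the inhibitors, beside 0.00 over all genes. Median scaling raised the median of all genes by 0.14 and that of the 8 genes to 0.62, and the share of all calls that were higher went from 46.9% to 69.9%. Quantile scaling left MMP1 with a difference of 0.00. It gives genes of equal rank the same value in every library, so this 0.00 need not mean an equal signal. The other 7 genes kept their direction under all 18 alternatives.

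**Figure D2:**
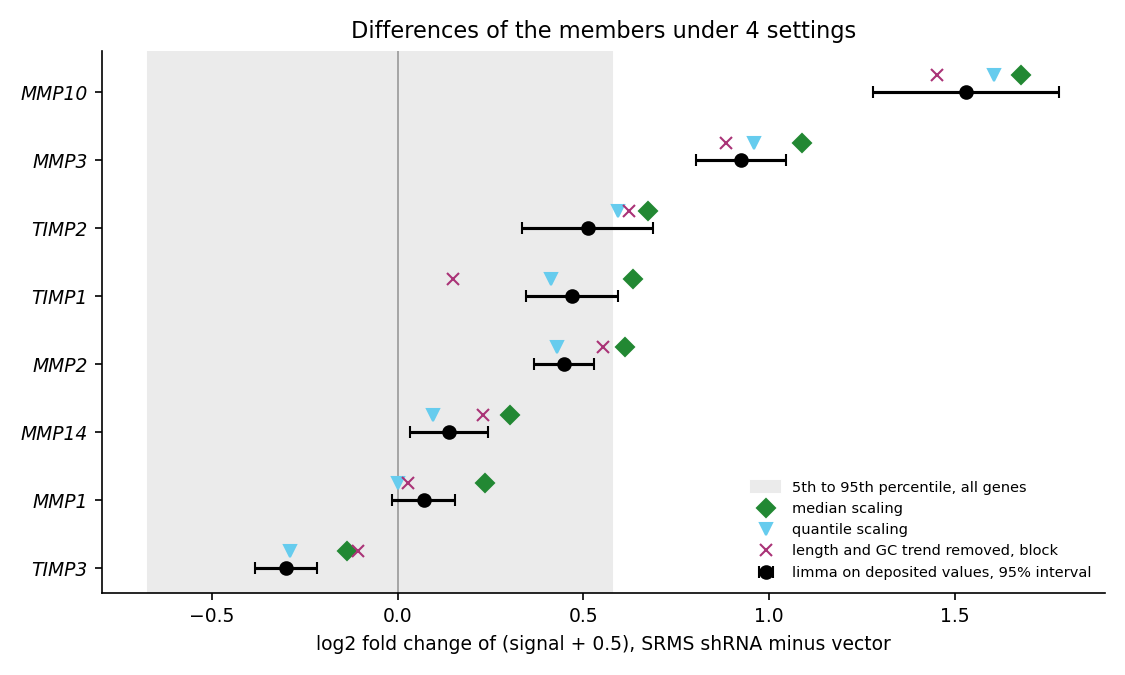
Log2 fold change of (signal + 0.5), SRMS shRNA minus vector, for each member: black points and bars give limma's estimate and 95% interval (n = 3 against 3), coloured marks the value under other settings, and the grey band the range between percentiles 5 and 95 of all 14029 genes. MMP10 (1.53) and MMP3 (0.93) lie outside the band under every setting shown, whereas TIMP1 moves from 0.47 to 0.15 after the length and GC correction.

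Replicate 1 differed from the others in the same way in both groups. It was the lowest of its group for MMP3, MMP10 and TIMP1 and the highest for MMP14, TIMP2 and TIMP3. So 6 of 8 genes had it at the same end in each. The share over all genes is not given here. Across genes the deviations of replicate 1 in the 2 groups correlated (r of 0.486), so this is not read as a trait of the members. For MMP1 and MMP2 it was not. Since the groups did not overlap for any of the 8 genes, each gene differs in 1 direction under any pairing of libraries. Only the sizes of the differences between same-numbered libraries are therefore informative. The log2 differences of MMP10 within replicates 1, 2 and 3 were 1.69, 1.53 and 1.37, and those of MMP3 in replicates 2 and 3 were 0.91 and 0.87, with a larger one in replicate 1. For TIMP1 they were 0.41, 0.48 and 0.52, and for TIMP3 -0.32, -0.30 and -0.28. Of 24 such differences over the 8 genes, 21 were above 0, and the rest were those of TIMP3. The lack of overlap fixes this count, so nothing is read from it.

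Transcript length also went with the differences over all genes. With the genes cut into 5 classes of length, the class with the shortest transcripts (up to 1755 nt) had a median log2 fold change of 0.23 and the class with the longest (from 5351 nt) one of -0.23. TIMP1 has the shortest transcript of the 8, 892 nt, and TIMP3 the longest, 4603 nt. The transcripts of MMP10, MMP1 and MMP3 are 1758, 1970 and 2016 nt long. MMP2 and MMP14, at 3741 and 3732 nt, fall with TIMP3 in the class from 3661 to 5350 nt, where the median of all genes was -0.12. TIMP2, at 3652 nt, falls in the class from 2567 to 3660 nt, where it was -0.02. After the length and GC correction, MMP2 and TIMP2 were at 0.55 and 0.62, MMP10 and MMP3 at 1.45 and 0.88, MMP14 at 0.23 and MMP1 at 0.03. What links length to the constructs was not tested.

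**Figure D3:**
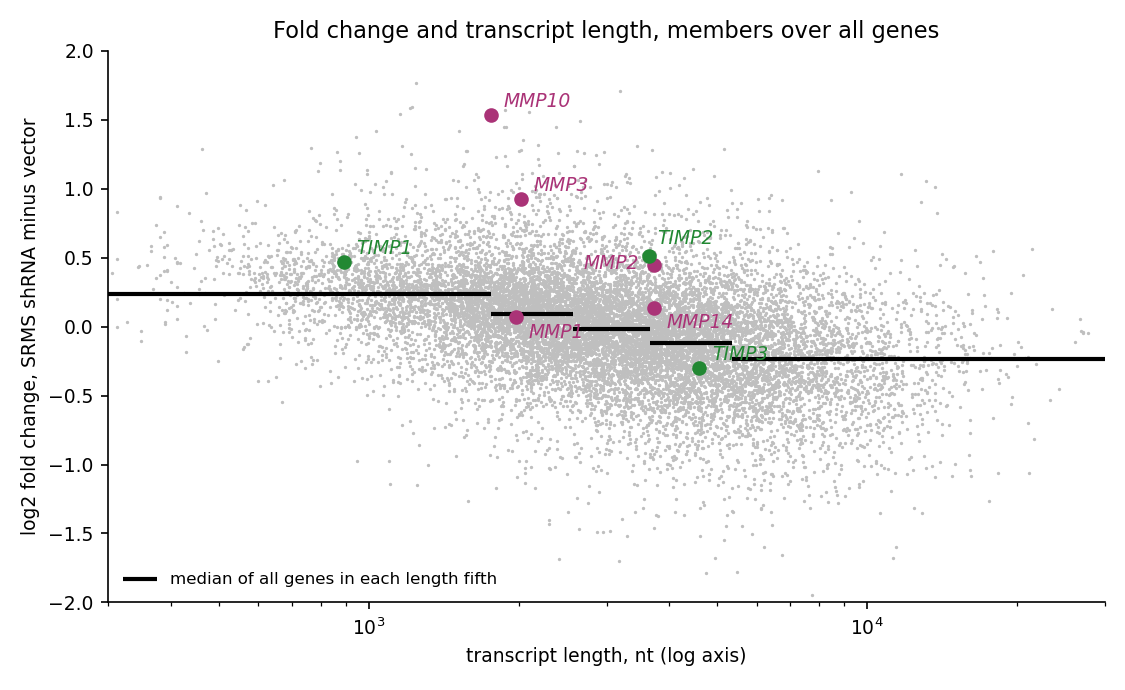
Log2 fold change (SRMS shRNA minus vector) against the length of 1 chosen transcript per gene (nt, log axis), with all genes in grey, proteases in purple, inhibitors in green and the median of each of the 5 length classes as a black line. MMP10, MMP3, MMP2 and TIMP2 lie well above the line at their length, TIMP1 (892 nt) lies less far above it, and TIMP3 (4603 nt) lies below it.

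Levels can be compared between genes only per length. Per kb of transcript, MMP1 stood at 4188 ± 66.2 in the vector libraries (SD, n = 3), the 7th highest of all 14029 genes. TIMP1 followed at 249 ± 11.6 and MMP14 at 45.8 ± 1.95. MMP3 (26.6 ± 1.9) and MMP2 (25.8 ± 0.498) came next and did not differ beyond their spread. TIMP3 had 19.8 ± 0.533, TIMP2 had 10.9 ± 1.15 and MMP10 had 1.64 ± 0.254, above only 32.0% of genes. In the SRMS shRNA libraries MMP3 (50.7 ± 1.77) and MMP14 (50.4 ± 2.75) could not be told apart, nor could TIMP3 (16.1 ± 0.186) and TIMP2 (15.6 ± 1.38), while MMP10 remained last at 5.26 ± 0.341.

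MMP1 transcripts therefore made up 97.6% to 97.7% of the summed protease signal per kb in the vector libraries and 96.9% in the SRMS shRNA libraries. Without MMP1, the other 4 proteases summed to 99.4 to 100.4 per kb with the vector and to 140 to 143 with SRMS shRNA. Within that sum MMP3 went from 26.6% ± 1.82 to 35.8% ± 1.16 and MMP10 from 1.65% ± 0.248 to 3.71% ± 0.224, while MMP14 went from 45.9% ± 2.05 to 35.6% ± 1.93 (SD, n = 3 each). Inhibitor transcripts summed to 269 to 290 per kb and to 349 to 392, with TIMP1 at 89.0% ± 0.92 and 91.6% ± 0.979 of the sum. The 4 proteases without MMP1 stood at a ratio to the inhibitors of 0.344 to 0.369 with the vector and 0.358 to 0.408 with SRMS shRNA. These ranges overlap. With MMP1 included the ratio was 14.9 to 15.6 and 11.5 to 13.0. The sums and ratios here are without the length and GC correction. That correction took the log2 fold change of TIMP1, most of the inhibitor sum, from 0.47 to 0.15. For MMP1 it went from 0.07 to 0.03.

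**Figure D4:**
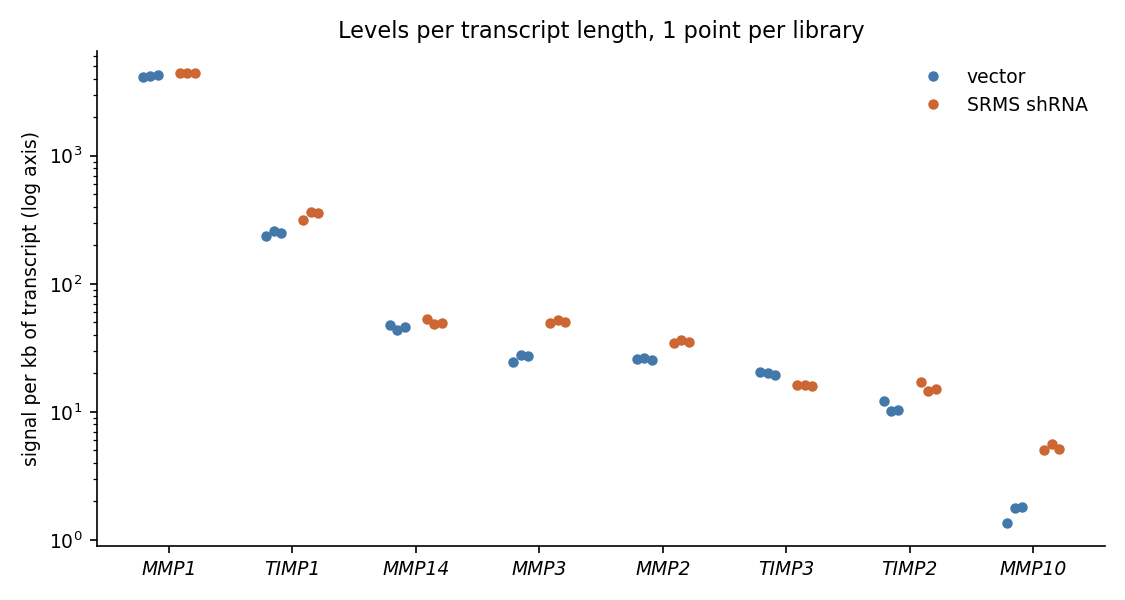
Signal per kb of transcript (log axis) of each member, 1 point per library, ordered by the vector mean. MMP1 lies near 4188 with the vector and far above the rest, TIMP1 is second, and MMP10 is lowest in both groups although it differs most between them.

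Other members of the protease family were low. Of 20 further genes (the remaining MMPs, TIMP4 and RECK), 11 had values. By limma with Benjamini-Hochberg adjustment over all genes, 4 were higher and 1 lower, beside 26.6% and 30.2% of all genes. The median log2 fold change was 0.32. Over all 14029 genes, 5917 were higher and 2542 lower with median scaling, and 3971 and 3683 with quantile scaling. After the length and GC correction they were 4839 and 3856. List counts under these settings, where given here and below, are to be read beside those numbers. This list had 6 higher and 0 lower with median scaling, 5 and 1 with quantile scaling, and 6 and 1 after the length and GC correction. MMP11, stromelysin-3, rose from 0.733 ± 0.0607 to 1.69 ± 0.102 (SD, n = 3 each). MMP24 and MMP15, both membrane-anchored, rose from 2.46 ± 0.296 to 4.33 ± 0.651 and from 0.605 ± 0.225 to 1.15 ± 0.1. MMP25, also held at the membrane, rose from 3.48 ± 0.465 to 5.21 ± 0.0569. The other 9 were not analysed here. MMP19 fell from 1.71 ± 0.118 to 1.22 ± 0.0847. Without SRMS shRNA replicate 1 the count was 7 higher and 1 lower, and without vector replicate 2 or vector replicate 3 it was 5 or 4 higher and 0 lower.

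Plasmin is a main activator of proMMP1 and proMMP3. Of 11 genes of the plasminogen system 10 had values, and PLG, the plasminogen gene, was not analysed here. There were 5 higher and 1 lower, beside 26.6% and 30.2% of all genes, with a median of 0.28. SERPINE2, protease nexin-1 and an inhibitor of plasminogen activators, rose from 56.3 ± 2.51 to 127 ± 7.13. PLAUR, the urokinase receptor, rose from 297 ± 9.21 to 407 ± 15.4, PLAT, tissue plasminogen activator, from 283 ± 5.8 to 357 ± 6.79, and PLGRKT, a plasminogen receptor, from 14.4 ± 0.475 to 20.7 ± 1.55. The lower gene was SERPINB2, from 457 ± 14.1 to 384 ± 8.77. Urokinase itself, PLAU, had 254 ± 3.42 and 249 ± 4.56 and did not pass. The list counts were 8 higher and 0 lower with median scaling, 5 and 4 with quantile scaling, and 5 and 3 with a median of 0.12 after the length and GC correction.

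The 12 proMMP activators and cell-surface partners split into 4 higher, 3 lower and 5 that did not pass (median 0.03). Of all genes, 26.6% were higher and 30.2% lower. BSG, an inducer of MMPs, rose from 696 ± 39.6 to 912 ± 74.9, CD63, which binds TIMP1, from 438 ± 14.1 to 552 ± 17.2, and the tetraspanin CD151 from 279 ± 12.8 to 383 ± 3.43. ITGAV, an integrin subunit, fell from 52.2 ± 2.3 to 30.3 ± 2.12. FURIN, which activates proMMP14, had 98.2 ± 2.87 and 101 ± 1.69 and did not pass. The list had 6 higher and 2 lower with median scaling, 4 and 3 with quantile scaling, and 7 and 3 after the length and GC correction.

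The related ADAM and ADAMTS proteases had 25 of 30 genes with values. There were 4 higher and 9 lower, beside 26.6% and 30.2% of all genes, with a median of -0.16. ADAM17, the main shedding protease for TNF and a target of TIMP3, fell from 25.9 ± 1.27 to 17.1 ± 1.01, and ADAM10 from 80.9 ± 2.02 to 61.9 ± 4.3. ADAM8 rose from 0.782 ± 0.165 to 2.25 ± 0.274 and ADAMTS13 from 0.374 ± 0.121 to 1.35 ± 0.0339. The balance of the list turned to 8 higher and 6 lower with median scaling and to 10 and 5 after the length and GC correction, where ADAM10 was at -0.02. Only 2 were higher without vector replicate 1, vector replicate 3 or SRMS shRNA replicate 2.

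AP-1 and ETS factors, which act on MMP promoters, had values for 14 of 14 genes. Of these, 6 were higher and 5 lower (median 0.01), beside 26.6% and 30.2% of all genes. FOS rose from 29.3 ± 1.51 to 59.8 ± 3.35 and FOSB from 13.8 ± 0.958 to 29.8 ± 0.279. FOSL2 fell from 63.0 ± 2.11 to 38.4 ± 1.71, as did the ETS factor ETV5 from 53.9 ± 0.777 to 38.1 ± 0.771. FOSL1, the AP-1 member with the highest signal of the list, had 366 ± 17.0 and 363 ± 7.67 and did not pass. The balance was 7 higher and 4 lower with median scaling and 7 and 7 after the length and GC correction.

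For matrix proteins that these enzymes cut, all 17 listed genes had values, 3 of them higher and 8 lower (median -0.19), beside 26.6% and 30.2% of all genes. COL1A1, the main chain of type I collagen and a substrate of MMP1 and MMP14, fell from 1238 ± 1.77 to 816 ± 3.24, and the laminin chain LAMA5 from 17.4 ± 0.88 to 5.42 ± 0.555. SPARC, a collagen-binding protein, rose from 186 ± 8.39 to 288 ± 4.46 and the basement membrane collagen COL4A2 from 97.3 ± 1.27 to 125 ± 1.7. COL1A2 and COL3A1 were close to 0, at means of 0.147 and 0.0671 and of 0.0364 and 0 in vector and SRMS shRNA. The list median is the value of COL1A2. Among the 15 genes with a mean log2 value of at least 1, the median was -0.20, with 3 higher and 8 lower. The balance was 5 higher and 6 lower with median scaling and 6 and 6 after the length and GC correction.

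**Figure D5:**
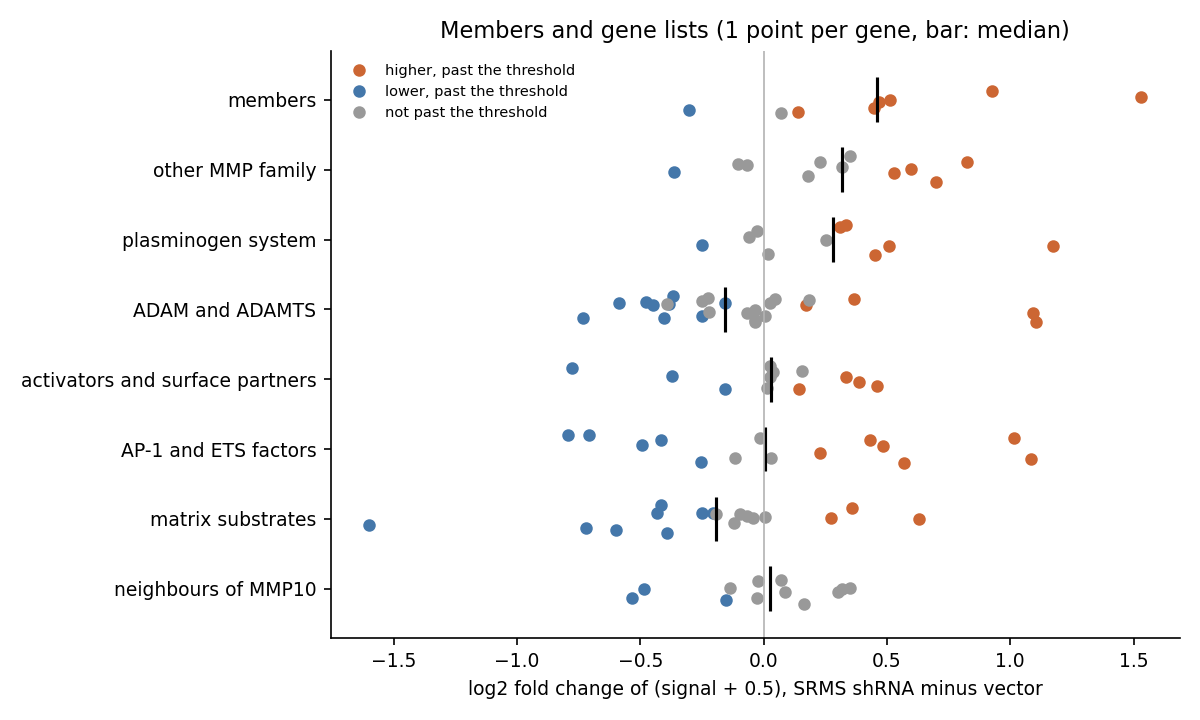
Log2 fold change (SRMS shRNA minus vector) of the 8 members and of each gene list, 1 point per gene, coloured by the limma call at an adjusted p under 0.05, with the list median as a bar. The medians run from 0.46 for the members and 0.32 for the other MMPs down to -0.19 for the matrix substrates.

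The 12 other genes with values that start within 1 Mb of MMP10 were counted by call. For them limma with Benjamini-Hochberg adjustment gave 0 higher and 3 lower, beside 26.6% and 30.2% of all genes. On recovered reads edgeR and DESeq2 also gave 0 higher, and 1 was higher at an unadjusted limma p under 0.05. The number higher was 1 with the replicate block, 3 without SRMS shRNA replicate 1, 5 with median scaling and 6 after the length and GC correction. The 3 lower genes were DYNC2H1 from 76.8 ± 1.06 to 52.9 ± 2.57, CEP126 from 17.9 ± 1.04 to 12.6 ± 1.02 and BIRC2 from 262 ± 5.24 to 235 ± 6.06. BIRC2 was at 0.01 with median scaling and 0.05 after the length and GC correction. MMP13, collagenase-3, and MMP12, macrophage elastase, in the same cluster, stood at 0.233 ± 0.0694 and 0.413 ± 0.0833 and at 0.0975 ± 0.126 and 0.256 ± 0.0957, and did not pass.

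The genes whose pattern over the 6 libraries was most like that of MMP10, by the root-mean-square distance between centred log2 profiles, were MAP3K7CL (0.0951), APOE (0.101), NNMT (0.12), S100A14 (0.136) and ID2 (0.136). None of them starts within 1 Mb of MMP10. MMP3, at 0.309, was the nearest of the other members. This distance takes in the difference between the groups, by which MMP10 was chosen, so it favours genes with a like fold change. MAP3K7CL, APOE, NNMT, S100A14 and ID2 had log2 fold changes of 1.35 to 1.59, beside 1.53 for MMP10. MMP3, at 0.93, had the next highest fold change of the members. The ranking therefore cannot show a likeness beyond that difference. ID2, an inhibitor of basic helix-loop-helix factors, had 9.37, 12.4 and 11.6 with the vector and 24.7, 30.7 and 32.0 with SRMS shRNA, and NNMT, nicotinamide N-methyltransferase, had 2.78, 2.69 and 3.19 and then 8.03, 9.27 and 8.86.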

How the data were processed

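The 8 members, the gene lists and the settings were chosen with earlier results of these data known. RNA of 12 samples in 4 groups of 3 was poly(A)-selected and sequenced with a stranded kit, per the labels' protocols; the submitters' processing notes name FastQC, cutadapt, HISAT2, StringTie, edgeR and build GRCh38, with versions and filters not given in the sources used here. Deposited values came as 1 table with 6 cisplatin columns; 6 PBS samples are not analysed here. Its deposited values, named log CPM, are a linear signal: reads scaled by the authors as for CPM. Divided by each column's step for 1 read, at least 99.99% of values came out whole (tolerance 0.1). The 13 Y copies of pseudoautosomal rows were left out of 14042. limma 3.58.1 (trend, R 4.3.3) was run on log2(signal + 0.5) with Benjamini-Hochberg adjustment over 14029 genes, threshold 0.05. It was tried on simulated counts without a shared replicate deviation, so that trial says nothing of its effect on these calls. Named genes are the members, SRMS, up to 4 per list by adjusted p and the 5 most like MMP10. MMP19, SERPINB2, PLAU, FURIN, FOSL1, COL1A2, COL3A1, MMP12, MMP13 and SYN1 were added after their values were seen. Alternatives used edgeR 4.0.16, DESeq2 1.42.0, other scalings, pseudocounts of 0.1 and 1, a filter that kept genes whose mean log2 value reached 1, left-out libraries, a replicate block and removal of the trend with length and GC content (mgcv 1.9.3). Transcripts (1 per gene), lengths and neighbours come from GENCODE on GRCh38, and promoters from RefSeq. Protein sequences were not used here. The deviations of same-numbered libraries from their group means correlated across genes (r of 0.486, 0.238 and 0.225). The printed calls, SEs and intervals nevertheless come from the fit without a block, and the blocked fit is an alternative. Replicates 2 and 3 also correlated across numbers (0.198 and 0.202), nearly as much as within a number. Deviations from a mean of 3 sum to 0, so only replicate 1 is shown to deviate together in both groups. A pairing by number of replicates 2 and 3 is not shown. Replicates 2 and 3 of a group were the closest, with a chi-square per gene of 2.47 and 2.63 among genes with 5000 reads or more, against 25.3 to 44.6 for pairs with replicate 1, and all were kept as separate replicates.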

Additional observations from a re-analysis of the deposited data

How the results depend on the processing

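Of the 8 members, MMP2, MMP3, MMP10, TIMP1, TIMP2 and TIMP3 kept their direction and call under all 18 alternatives, with ranges of 0.43 to 0.61, 0.87 to 1.09, 1.40 to 1.68, 0.15 to 0.63, 0.44 to 0.67 and -0.32 to -0.11. MMP14 (0.09 to 0.30) lost its call under 6 and MMP1 (0.00 to 0.23) gained one under 5. The 0.00 of MMP1 is from quantile scaling, which acts on ranks. The members counted higher ran from 5 to 7 and those lower stayed at 1. With the replicate block 7 members were higher and 1 lower; besides MMP1 it changed the call of no other member. With replicate 1 of both groups left out, MMP10 was at 1.45 and MMP3 at 0.89. Over all lists together, 26 of 99 genes were higher and 30 lower, beside 26.6% and 30.2% of all genes. With median scaling 44 were higher, and with the replicate block plus the length and GC correction 46. Over all 14029 genes these 2 settings gave 5917 and 4839 higher, and the cause was not tested. The genes called over the whole table, 7969, stayed within 1.5 times that number under every alternative run, with 6068 when replicates 2 and 3 were averaged. Depth limits MMP10 most, at 71 to 361 reads a library, and intervals cover the spread of these 6 libraries only.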
